A study of Mus musculus with 18 samples.

Results

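The G2-arrested and G1-arrested coding-join libraries of cells that have DNA-PKcs were compared, 6 of the 18 samples of the series. They were chosen by genotype and phase label alone: wild type (1 G1 and 2 G2 libraries) and CtIP A/A (1 G1 and 2 G2 libraries). The 6 libraries held 5772 of the 30937 junctions in the 12 coding-join libraries, and 2244 of the 5772 were coding joins.

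The cells were v-abl-transformed mouse B cells of strain 129, B-lineage precursors immortalised by a viral Abl kinase, and all carried the integrated pMX-INV recombination substrate. For G1 arrest the cells received STI571, which blocks Abl (3 µM, 48 or 72 h, with the duration of each library not given), and for G2 arrest 24 h of STI571 and then the CDK1 inhibitor RO3306 (10 µM for 48 h). CtIP A/A is an alanine substitution in CtIP on both alleles, and DNA-PKcs is present in both genotypes. The labels name no clones or separate cultures, so genotype and cell line cannot be told apart. The phase likewise cannot be told apart from RO3306 and from the time in STI571. When each join formed was not measured, and since the G2 cells spent their first 24 h in STI571, some of their joins may predate the G2 arrest. Below, G1 and G2 name the arrest at harvest. A p-value here reflects sample-to-sample spread that could be technical alone.

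STI571 turns on the RAG nuclease, which cuts between a recombination signal and the coding sequence beside it. The coding end is left as a sealed hairpin that Artemis, activated by DNA-PKcs, opens, and it is then trimmed, extended by terminal transferase or fill-in, and ligated by classical end joining. The signal end is blunt. In cycling cells RAG2 is degraded as cells enter S phase, and CtIP-dependent resection of broken ends is more active in S and G2 than in G1. HTGTS, a sequencing assay for translocations, starts at a primer on the substrate and reads across 1 coding end, the bait, into whatever that end was joined to, the prey.

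On the substrate, each recombination signal has its heptamer beside the coding sequence. It reads CACTGTG on the strand where the coding sequence follows it. The bait coding sequence begins at substrate position 1943 and that of its partner at 2813. A coding join has its prey on the partner coding side, and a deletion is the number of coding bases missing from an end. An end whose alignment ran into the heptamer counts as 0 bp. The same heptamer lies at the Jκ segments of Igk, and its reverse complement follows the VH segments of Igh, which were the natural RAG targets most often joined to the bait. The Jκ segments and some VH segments are shown as the 60 bases around the segment border in mm10 (RefSeq's GRCm38 sequence). They run 5′ to 3′ in the direction of the gene, with an exact heptamer in capitals.

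Igkj1, chr6:70722522-70722581, plus strand, coding sequence to the right of the heptamer: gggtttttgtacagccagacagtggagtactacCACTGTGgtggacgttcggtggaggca
Igkj2, chr6:70722876-70722935, plus strand: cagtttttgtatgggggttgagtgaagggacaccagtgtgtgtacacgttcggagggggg
Igkj3, chr6:70723183-70723242, plus strand: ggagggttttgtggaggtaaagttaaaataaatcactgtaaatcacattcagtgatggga
Igkj4, chr6:70723508-70723567, plus strand: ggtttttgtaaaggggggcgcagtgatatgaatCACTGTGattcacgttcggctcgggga
Igkj5, chr6:70723846-70723905, plus strand: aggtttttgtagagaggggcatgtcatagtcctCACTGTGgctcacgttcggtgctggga
Ighv1-54, chr12:115193635-115193694, minus strand, coding sequence to the left of the heptamer: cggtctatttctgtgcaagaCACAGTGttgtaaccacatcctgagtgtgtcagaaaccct
Ighv1-11, chr12:114612203-114612262, minus strand: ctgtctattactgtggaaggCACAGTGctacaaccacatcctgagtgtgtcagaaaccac
Ighv8-7, chr12:115258096-115258155, minus strand, annotated as a V pseudogene: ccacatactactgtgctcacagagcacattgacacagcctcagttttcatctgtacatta

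Of these, Igkj2, Igkj3 and Ighv8-7 hold no exact heptamer in the 60 bases. Joins at these segments are given at the end.

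Depth differed with phase. The G1 libraries held 2993 junctions (wild type) and 834 (CtIP A/A). The G2 libraries held 535 and 289 in wild type, and 535 and 586 in CtIP A/A. A count of 0 allows a share of up to 0.100% of the largest library and 1.04% of the smallest. Without molecular identifiers, PCR copies of 1 molecule cannot be recognised, and intervals (95%, Wilson) and these limits cover counting error only. The wild-type G1 library and the second wild-type G2 library each stood apart in genome junctions, described below. The first G2 library of each genotype was sequenced in run 1, and the other 4 libraries in run 2. In the exact permutation test, phase labels were permuted within genotype. It has 9 arrangements and its smallest two-sided p is 0.111, so no difference could reach 0.05. Of 19 measures, 11 had G1 libraries that did not overlap the G2 libraries, and 10 were at the smallest p. Several of these measures were taken from the same coding joins, so they are not independent results. Some of these separations did not hold in the alternatives given below.

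In 5 of the 6 libraries most junctions lay on the substrate, and the exception was wild-type G1. The wild-type G1 library had 1176 of 2993 junctions on the substrate (39.3%), and the G2 libraries had 370 of 535 (69.2%) and 185 of 289 (64.0%). In CtIP A/A the share was 63.7% in G1 (531 of 834) and 66.0% and 63.5% in G2. The wild-type G1 library stood alone and the other 5 lay between 63.5% and 69.2%. Averaged over genotypes, G2 was 14.2 points higher (p = 0.222, exact permutation). Without the wild-type G1 library, only CtIP A/A remains and its difference was 1.06 points.

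Within the substrate, coding joins were the main product in every library. They made up 70.6% of substrate junctions in wild-type G1 and 75.7% and 89.7% in wild-type G2. For CtIP A/A they were 78.7% in G1 and 73.9% and 77.7% in G2. The G1 library lay below both G2 libraries in wild type and above both in CtIP A/A.

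Hybrid joins, in which the bait coding end is ligated to the partner's signal end, were few and were a smaller share in the G2 libraries. There were 31 in wild-type G1 (2.64% of substrate junctions, 1.86 to 3.72) and 4 and 2 in the wild-type G2 libraries (1.08% each). CtIP A/A had 18 in G1 (3.39%, 2.15 to 5.29) and 0 of 353 and 7 of 372 in G2 (1.88% in the second). The G2 libraries all lay below both G1 libraries (difference −2.0 points, p = 0.111, exact permutation).

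Joins of the bait to its own signal side showed the same order. Their share of substrate junctions was 6.46% in wild-type G1 and 2.70% and 1.62% in G2, and 4.14% in CtIP A/A G1 and 3.12% and 1.88% in G2. Their bait had lost a median of 8.5 bp in wild-type G1 and 37 bp in CtIP A/A G1. In the G2 libraries, with 10, 3, 11 and 7 such joins, the median loss was 59 to 80 bp. In G2 these are thus in large part not joins of intact coding ends. Joins onto the inverted bait ran the other way in 3 of 4 G2 libraries, with 9.46%, 8.22% and 8.60% against 5.70% and 4.90% in G1, whereas the second wild-type G2 library had 3.24%. The bait of these inverted joins had lost a median of 82.5 to 131 bp, so in large part they are not joins of intact coding ends. Another 92 reads had their prey on the opposite strand of the partner coding side. In 91 of them the gap before the turn held partner coding letters, so they read as coding joins with a fold-back and were kept apart. They numbered 53 in wild-type G1, 5 and 0 in wild-type G2, 11 in CtIP A/A G1 and 8 and 15 in CtIP A/A G2. These 3 kinds of join were described and not tested.

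By the measures listed next, coding joins of the G2 libraries kept more of both coding ends than those of the G1 libraries, in both genotypes. The G2 libraries had a lower median partner deletion, fewer partner and bait deletions over 20 bp, and more joins in which both ends were nearly complete. For each of these the 4 G2 libraries lay on one side of the 2 G1 libraries.

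At the partner end, the median deletion was 7 bp in wild-type G1 and 3 and 2 bp in G2. The CtIP A/A medians were 6 bp in G1 and 3 and 4 bp in G2. No G2 library reached the lower of the G1 medians (difference −3.5 bp, p = 0.111, exact permutation).

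In wild-type G1, 143 of 830 coding joins had lost over 20 bp of the partner end (17.2%, 14.8 to 20.0), against 14 of 280 (5.0%, 3.0 to 8.22) and 15 of 166 (9.04%) in G2. For CtIP A/A these were 69 of 418 in G1 (16.5%), against 19 of 261 (7.28%) and 27 of 289 (9.34%) in G2. The G1 libraries were within 1 point of each other and the highest G2 library was 9.34%. The difference was −10.2 points in wild type and −8.20 points in CtIP A/A, −9.20 on average (p = 0.111, exact permutation). Whether it differed between the CtIP genotypes was not tested. Without DNA-PKcs the shares were 51.7% in G1 and 37.7% in G2 on average, and the test of the phase effect with against without DNA-PKcs gave an adjusted p of 0.924 (exact permutation over 81 arrangements, Benjamini-Hochberg over 19 measures). The null of this test, here and below, is no phase effect in any genotype. A high p from it therefore does not show that the effects with and without DNA-PKcs are alike.

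**Figure D1:**
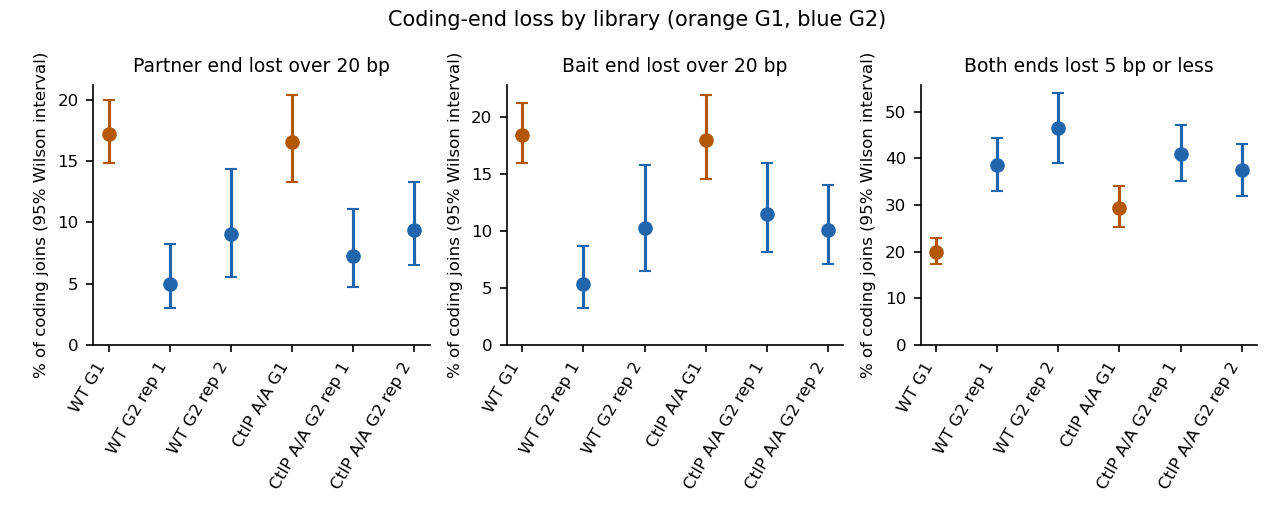
Share of coding joins (y axis, %) with over 20 bp lost from the partner end, over 20 bp lost from the bait end, or 5 bp or less lost from both ends, in each of the 6 libraries (x axis; orange G1, blue G2). Points are library values and bars are 95% Wilson intervals. Both G1 libraries lie above the 4 G2 libraries in the first 2 panels (17.2% and 16.5% against at most 9.34% at the partner end) and below them in the last (20.0% and 29.4% against at least 37.4%).

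Complete ends and long losses both differed. Joins that kept the partner coding end complete made up 26.5% in wild-type G1 and 40.4% and 38.6% in G2, and 29.7% in CtIP A/A G1 and 33.3% and 33.9% in G2. Deletions of 21 to 50 bp made up 8.67% and 9.57% in the G1 libraries and 3.21% to 6.02% in the G2 libraries. The middle class of 6 to 20 bp overlapped between phases, with 37.1% and 34.4% in G1 and 29.5% to 36.3% in G2.

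**Figure D2:**
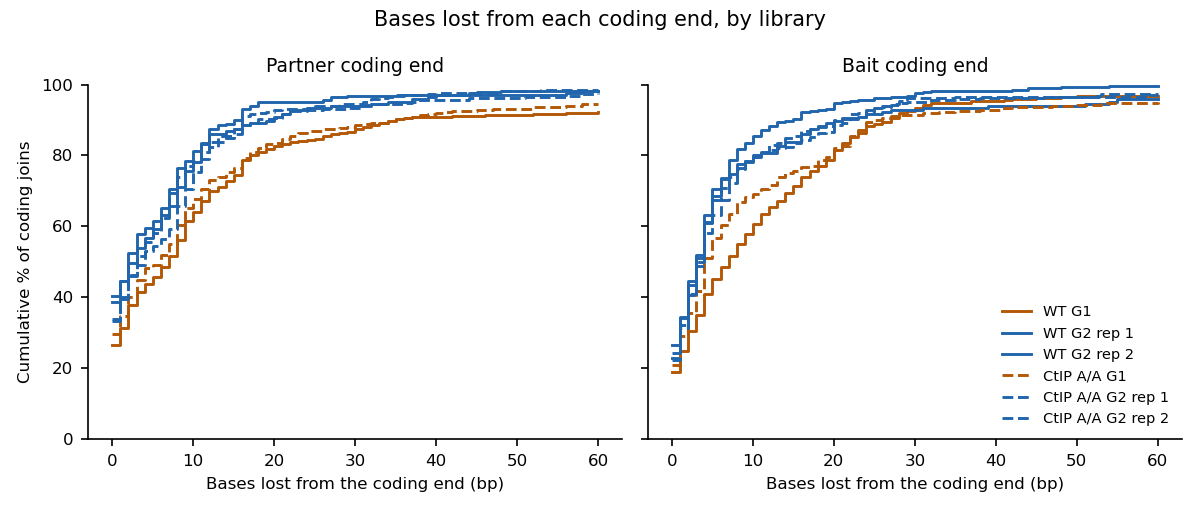
Cumulative share of coding joins (y axis, %) against the bases lost from the partner end (left) and the bait end (right) up to 60 bp (x axis), 1 line per library, orange for G1, blue for G2, solid for wild type and dashed for CtIP A/A. At the partner end the G1 lines start at 26.5% and 29.7% of joins with no loss and stay below the G2 lines, which start at 33.3% to 40.4%.

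The longest partner deletions were mostly in wild-type G1. Losses over 200 bp made up 54 of 830 coding joins there (6.51%, against 1.43% and 1.20% in wild-type G2), and 10 of 418 in CtIP A/A G1 (2.39%, against 0 of 261 and 1 of 289 in G2). The 54 joins fell on 37 distinct positions 205 to 713 bp into the partner coding side (median 568 bp). In 48 of the 54 the bait end had lost 5 bp or less, so in these the long loss was on the partner side alone. The G1 and G2 libraries did not overlap (difference −3.70 points, p = 0.111, exact permutation), and without the wild-type G1 library the difference was −2.22 points. Without DNA-PKcs the share was 0.972 points higher in G2, and the phase effects differed by −4.68 points (p = 0.0123, the smallest p of the exact permutation test, adjusted p = 0.235).

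At the bait end, the medians were 7 bp in wild-type G1 and 3 bp in both G2 libraries, but 4 bp in all 3 CtIP A/A libraries. The median was thus lower in G2 in wild type and equal in CtIP A/A (difference −2.0 bp on average, p = 0.333, exact permutation). With identical junctions counted once, the CtIP A/A medians separated, 6 bp in G1 against 4 and 4.5 bp in G2, and the average difference was −3.13 bp (p = 0.111, exact permutation). Deletions over 20 bp made up 18.4% in wild-type G1 and 5.36% and 10.2% in G2, and 17.9% in CtIP A/A G1 and 11.5% and 10.0% in G2. Here the phases did not overlap in either genotype (difference −8.91 points, p = 0.111, exact permutation). The size depends on where the coding end is set and on the length counted as long. With the ends at the most frequent positions the difference was −4.25 points and the phases still did not overlap. With deletions over 50 bp it was −1.15 points (p = 0.667, exact permutation). Bait deletions of 21 to 50 bp held most of this gap, with 15.1% and 12.2% in G1 and 4.22% to 8.05% in G2. No coding join had a bait deletion over 200 bp in any of the 6 libraries.

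Joins that lost 5 bp or less from each end were more frequent in G2. They made up 20.0% in wild-type G1 and 38.6% and 46.4% in G2, and 29.4% in CtIP A/A G1 and 41.0% and 37.4% in G2. The lowest G2 library lay above the highest G1 library (difference 16.1 points, p = 0.111, exact permutation). The difference was 22.5 points in wild type and 9.76 points in CtIP A/A, the value that remains without the wild-type G1 library. Without DNA-PKcs it was 1.37 points, from a G1 mean of 5.02% (difference of the phase effects 14.7 points, adjusted p = 0.410, exact permutation). Joins with no base lost from either end were 5.54% and 6.22% in G1 and 6.51% to 9.69% in G2. Summed over both ends, the median loss was 18 and 13 bp in G1 and 8 to 10 bp in G2, and the 90th percentile was 93.1 and 60.3 bp in G1 and 25 to 33.5 bp in G2.

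Loss at one end went with loss at the other to an extent that varied among libraries. In wild-type G1, a bait deletion over 20 bp was found in 30 of 143 joins with a long partner deletion (21%) and in 17.9% of the remaining joins. In CtIP A/A G1 these shares were 47.8% (33 of 69) and 12%. The 143 joins of wild-type G1 include the 54 with a partner loss over 200 bp, 48 of which had lost 5 bp or less of the bait. In CtIP A/A G1 the 69 include 10 such joins, 6 of them with a bait loss of 5 bp or less. In the G2 libraries the joins with a long partner deletion were few: bait loss was also long in 3 of 14 and 11 of 15 in wild type and in 8 of 19 and 17 of 27 in CtIP A/A, against 3.97% to 9.09% of the remaining joins. The 11 of 15 in the second wild-type G2 library is an interval of 48.0% to 89.1%. Joins with both losses over 20 bp made up 3.61% in wild-type G1 and 1.07% and 6.63% in wild-type G2. In CtIP A/A they made up 7.89% in G1 and 3.07% and 5.88% in G2.

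The prey positions used most were the same few bases around the heptamer border. By mean share of substrate junctions they were 2811 and 2812, the last bases of the heptamer, 2813, the first coding base, and 2815 and 2821. Position 2813 took 3.06% and 4.14% in the G1 libraries and 5.67% to 6.18% in the G2 libraries, without overlap. Position 2811 took 8.59% and 9.23% in G1 and 9.07% to 14.6% in G2, and positions 2812, 2815 and 2821 overlapped between phases as well.

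The share of joins with inserted bases overlapped between the phases. Insertions were found in most coding joins of every library, 68.2% in wild-type G1 and 65.0% and 66.3% in G2, and 70.6% in CtIP A/A G1 and 68.6% and 66.8% in G2 (difference −2.73 points, p = 0.111, exact permutation). It was −0.485 points with identical junctions counted once (p = 0.889, exact permutation). With alignments trimmed at the heptamer borders, bases aligned to the heptamer no longer count as homology and can count as inserted bases. By this changed definition the inserted shares were 74.4% and 75.8% in G1 and 73.0% to 74.7% in G2, a difference of −0.820 points.

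Insertions were on average shorter in the G2 libraries. Their mean length was 4.87 bp in wild-type G1 and 3.96 and 3.10 bp in G2, and 4.27 bp in CtIP A/A G1 and 3.63 and 4.12 bp in G2. The G2 libraries lay below both G1 libraries, by 0.147 bp at the closest in CtIP A/A (difference −0.867 bp, p = 0.222, exact permutation). The difference was −0.393 bp without the wild-type G1 library and −1.34 bp without the CtIP A/A G1 library. Without DNA-PKcs, where insertions were shorter (mean 2.53 bp in G1), the difference was 0.190 bp, and the phase effects differed by −1.06 bp (p = 0.0494, adjusted p = 0.313, exact permutation).

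Single-base insertions made up 17.5% and 17.6% of inserted joins in G1 and 21.2% to 27.4% in G2. Insertions of 7 to 10 bp made up 17.5% and 16.9% in G1 and 6.36% to 14% in G2. Over 10 bp the phases overlapped, since wild-type G1 had 8.30% and CtIP A/A G1 3.39%, and the G2 libraries ran from 0 of 110 to 4.95%. The longest insertion was 27 and 20 bp in the G1 libraries and 9 to 28 bp in the G2 libraries.

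**Figure D3:**
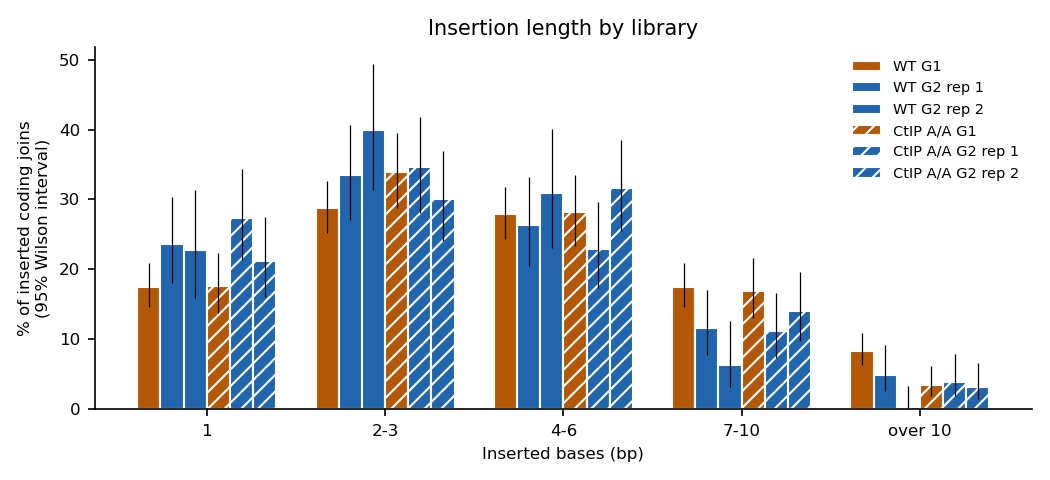
Length of the insertion (x axis, bp, in 5 classes) as a share of inserted coding joins (y axis, %) in each library, orange for G1, blue for G2, hatched for CtIP A/A, with 95% Wilson intervals. Single-base insertions are at 17.5% and 17.6% in G1 and 21.2% to 27.4% in G2, and the class of 7 to 10 bp runs the other way; many intervals of single libraries overlap.

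The base composition of the insertions overlapped between the phases. G and C made up 65.1% and 66.7% of inserted bases in G1 and 64.2% to 68.0% in G2 (difference 0.215 points, p = 0.778, exact permutation). This sign turned in 4 of its alternatives. C alone made up 36.8% to 41.5% in the 6 libraries. The 10 inserts with the highest mean share were the 4 single bases, the pairs CC and GG, and short mixed inserts of 2 or 3 bases. A single G made up 6.54% and 8.14% of inserted joins in G1 and 4.55% to 9.33% in G2. A single C made up 2.65% and 2.71% in G1, and 8.24%, 6.36%, 8.38% and 6.74% in G2. Of the 4 single bases, C was the one whose libraries did not overlap between phases; this was noticed among the 10 inserts and was not tested.

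Joins with neither insertion nor shared bases made up 14.5% and 14.6% in G1 and 15.3% to 16.1% in G2. The libraries did not overlap, but the gap of 1.13 points (p = 0.111, exact permutation) became −2.02 points when identical junctions were counted once. Joins with at least 1 bp of overlap between the alignments, read as microhomology, made up 17.3% in wild-type G1 and 18.9% and 18.1% in G2, and 14.8% in CtIP A/A G1 and 16.1% and 17.6% in G2 (difference 1.59 points, p = 0.222, exact permutation). Trimmed at the heptamer borders, the difference was −0.187 points. Overlaps of 4 bp or more were 2.77% and 2.15% in G1 and 2.08% to 4.22% in G2, or 0.383% to 1.20% in all 6 libraries once trimmed. No direction can be given for either class.

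The lower partner loss in G2 was found in joins with insertions and, on small counts, in direct joins. Among joins with an insertion, partner deletions over 20 bp made up 14.7% and 14.2% in G1 and 3.30% to 8.18% in G2. Among direct joins they made up 17.5% and 24.6% in G1 and 5.0% to 11.5% in G2. The G2 values rest on 3 of 45 and 3 of 26 direct joins in wild type and 2 of 40 and 3 of 45 in CtIP A/A. The interval of the second wild-type G2 library (3 of 26) overlapped that of wild-type G1. Among microhomology joins, 27.1% and 19.4% in G1 compared with 9.43% and 10.0% in wild-type G2 and 19% and 27.5% in CtIP A/A G2. The phases thus overlapped in the microhomology joins, which numbered 30 to 53 in each G2 library.

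Genome junctions, in which the bait was joined to a mouse chromosome, differed between phases first in where the bait itself ended. Outside telomere repeats there were 1769 in wild-type G1 and 128 and 95 in G2, and 298 in CtIP A/A G1 and 141 and 192 in G2. In G1 most came from a bait end close to the RAG cut, counting ends that ran into the heptamer or beyond it. In G2 most came from a bait end well inside the bait sequence. Whether the junctions with a distant bait end are ligated ends or products of mispriming was not tested.

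The bait had lost over 20 bp in 39.1% of these junctions in wild-type G1 and in 55.5% and 95.8% in G2, and in 36.6% in CtIP A/A G1 and 73.8% and 70.3% in G2. Every G2 library lay above both G1 libraries (difference 36.0 points, p = 0.111, exact permutation). The difference was 36.6 points in wild type and 35.5 points in CtIP A/A, and 25.9 points without the second wild-type G2 library. Without DNA-PKcs it was −15.4 points, and the phase effects differed by 51.4 points (p = 0.0494, adjusted p = 0.313, exact permutation). In coding joins of the same libraries, bait loss over 20 bp went the other way, as given above. The share also moves with the number of near bait ends. Genome junctions with long bait loss numbered 691 beside 830 coding joins in wild-type G1, and 71 beside 280 and 91 beside 166 in G2. In CtIP A/A they numbered 109 beside 418 in G1, and 104 beside 261 and 135 beside 289 in G2. Relative to coding joins they were fewer in G2 in wild type and more in G2 in CtIP A/A, which was not tested.

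**Figure D4:**
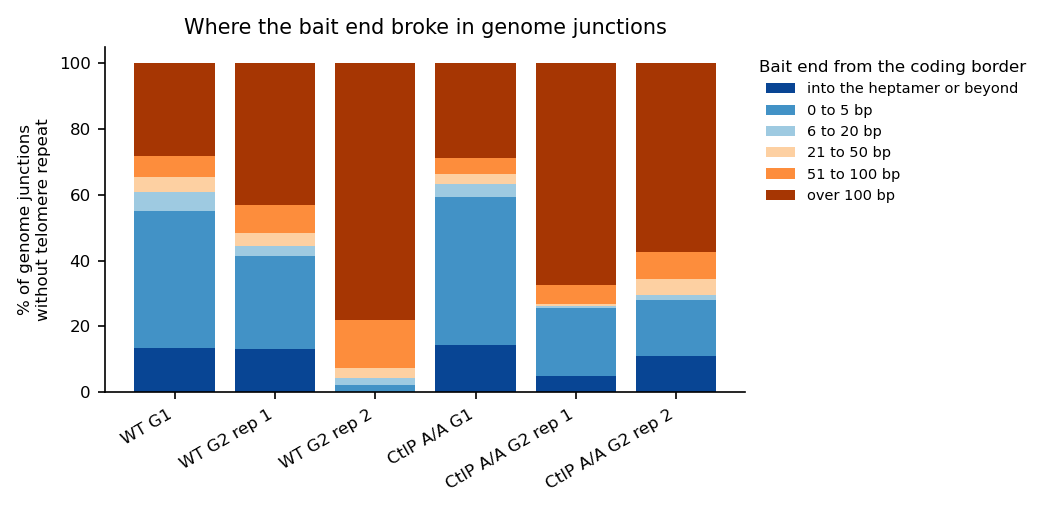
Distance of the bait end from the bait coding border in genome junctions without telomere repeat, as a share of those junctions (y axis, %), in each library (x axis); blue shades are 20 bp or less and orange shades are over 20 bp. The class over 100 bp takes 28.0% and 28.9% in the G1 libraries and 43.0% to 77.9% in the G2 libraries.

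Bait ends 0 to 5 bp from the border made up 41.7% of genome junctions in wild-type G1, 28.1% and 2.11% in wild-type G2, 45.0% in CtIP A/A G1 and 20.6% and 17.2% in CtIP A/A G2. Junctions whose bait had lost over 20 bp also differed in their prey. Prey alignments under 90% identity to the mouse genome made up 8.45% to 30.3% of them in the 6 libraries. Among junctions with the bait end within 20 bp, such alignments made up 0.742% in wild-type G1 (8 of 1078) and 0 of 344 in the other 5 libraries together. The 2 kinds of genome junction are therefore given apart. Here and below, bait ends within 20 bp, also called near bait ends, include those that ran into the heptamer or beyond it. With prey under 90% identity left out, the difference in long bait loss was 39.4 points.

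Relative to coding joins, genome joins of the bait coding end, taken as those with the bait end within 20 bp, were fewer in G2. For every 100 coding joins there were 130 in wild-type G1 (1078 against 830), and 20.4 and 2.41 in wild-type G2 (57 against 280 and 4 against 166). In CtIP A/A there were 45.2 in G1 (189 against 418), and 14.2 and 19.7 in G2 (37 against 261 and 57 against 289). Ends that ran into the heptamer or beyond it made up 238 of the 1078 in wild-type G1 and 17 of 57 and 0 of 4 in wild-type G2. They made up 43 of 189 in CtIP A/A G1 and 7 of 37 and 21 of 57 in CtIP A/A G2. By the ratio, the G2 libraries all lay below the lower G1 library. The difference was −73.4 per 100 (p = 0.111, exact permutation), −118 in wild type and −28.3 in CtIP A/A, which is also the value without the wild-type G1 library. In the run that held both phases it was −76.5. This ratio was added after the data were seen.

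In the libraries without DNA-PKcs the ratio was higher in G2. DNA-PKcs -/- had 16.3 in G1 against 24.3 and 67.9 in G2. The double mutant, CtIP A/A DNA-PKcs -/-, had 68.5 in G1 against 110 and 76.9 in G2. The mean difference there was 27.4 per 100, and the phase effects with and without DNA-PKcs differed by −101 (p = 0.0123, exact permutation, unadjusted, the smallest p the test allows).

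**Figure D5:**
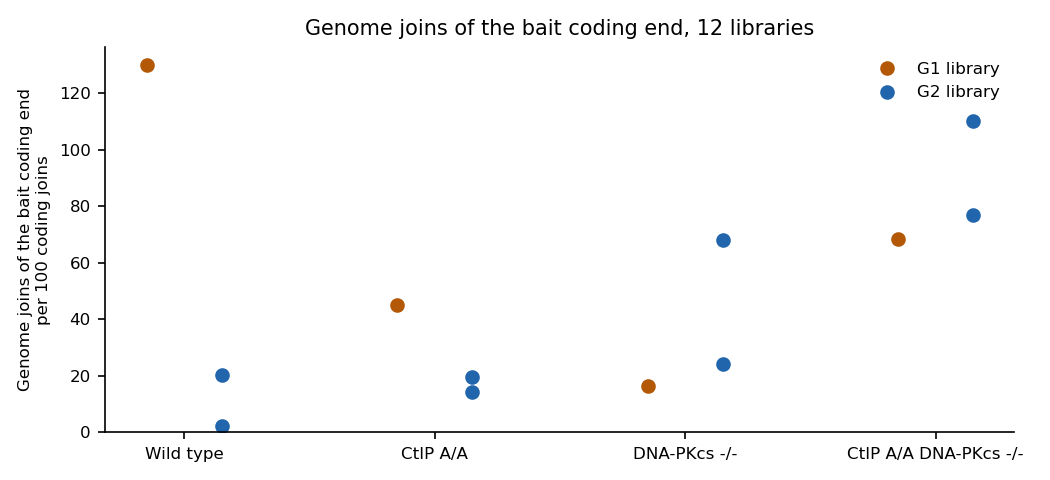
Genome joins whose bait end lay within 20 bp of the coding border, per 100 coding joins (y axis), in all 12 coding-join libraries by genotype (x axis). Bait ends that ran into the heptamer or beyond it are included. Each point is 1 library, orange for G1 and blue for G2. With DNA-PKcs the G1 points are at 130 and 45.2 and the G2 points at 2.41 to 20.4, and without DNA-PKcs the G1 point of each genotype lies below both G2 points.

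Insertions and microhomology at genome junctions overlapped between phases. Insertions were found in 46.4% and 47.0% in G1 and 30.7% to 48.2% in G2 (difference −6.13 points, p = 0.556, exact permutation). This value rested on single libraries, since it was −10.5 points without the first CtIP A/A G2 library, −1.76 without the second and −3.27 without the first wild-type G2 library. Microhomology was found in 43.1% and 39.9% in G1 and 41.1% to 58.3% in G2 (difference 7.43 points, p = 0.333, exact permutation). It was 11.4 points without the first CtIP A/A G2 library, 3.48 without the second, 4.22 without the first wild-type G2 library and 4.35 without the CtIP A/A G1 library. Among genome joins of the near bait end alone, microhomology of 1 bp or more was 38.1% and 37.6% in G1 and 38.6%, 40.5% and 47.4% in the G2 libraries, leaving out the second wild-type G2 library with 4 such joins. These shares exceeded those of coding joins in every library.

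Junctions into telomere repeats were a larger share of all junctions in G2. They made up 1.60% in wild-type G1 (48 of 2993) and 6.92% and 3.11% in G2, and 0.60% in CtIP A/A G1 (5 of 834) and 7.66% and 3.75% in G2. The phases did not overlap (difference 4.26 points, p = 0.222, exact permutation), and both values above 5% came from run 1. In that run the bait had lost over 100 bp in 30 of 37 and 29 of 41 telomere junctions, whereas in run 2 it had in 0 of 9 and 3 of 22 in G2 and in 7 of 48 and 2 of 5 in G1. Within run 2, which held both phases, the difference was 2.33 points.

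The antigen receptor loci, where RAG cuts on its own account, took a smaller share of genome junctions in G2. They held 165 of 1817 in wild-type G1 (9.08%) and 13 of 165 (7.88%) and 2 of 104 (1.92%) in G2. In CtIP A/A they held 35 of 303 in G1 (11.6%) and 8 of 182 (4.40%) and 7 of 214 (3.27%) in G2. On this base the G2 libraries lay below both G1 libraries (difference −5.95 points, p = 0.111, exact permutation). Over genome junctions free of telomere repeat, the first wild-type G2 library, with 13 of 128 (10.2%), lay above wild-type G1, with 165 of 1769 (9.33%). The phases then overlapped, and the difference was −5.14 points (p = 0.333, exact permutation).

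This share moved with the position of the bait end. Receptor joins came from the near bait end in 159 of 165 and 32 of 35 cases in G1, and in 13 of 13, 0 of 2, 7 of 8 and 4 of 7 cases in G2. Among genome joins of the near bait end without telomere repeat, receptor loci took 14.7% (159 of 1078) in wild-type G1 and 22.8% (13 of 57) and 0 of 4 in wild-type G2. They took, in CtIP A/A, 16.9% (32 of 189) in G1 and 18.9% (7 of 37) and 7.02% (4 of 57) in G2. Here too the phases overlapped. Its intervals are wide, 13.8% to 35.2% for the first wild-type G2 library.

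Most receptor joins were at the immunoglobulin loci. Igk, the κ light chain locus, held 119 junctions in the G1 libraries and 15 in the G2 libraries, Igh, the heavy chain locus, held 60 and 12, and Igl, the λ light chain locus, held 12 and 3. These are sums over libraries, and the order of Igk and Igh was not the same in each. The first wild-type G2 library had 7 junctions at Igh and 5 at Igk, and the first CtIP A/A G2 library had 3 at each. The T cell receptor loci gave a few junctions in G1 alone, with 4 at Tcra/Tcrd, 2 at Tcrb and 3 at Tcrg, and 0 in G2, where there were 665 genome junctions in all against 2120 in G1.

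At the Jκ segments printed above, the G1 libraries had 29 coding-side and 18 signal-side joins and the G2 libraries had 5 and 5. Igkj1 gave 11 coding-side joins in G1 and 3 in G2 and no signal-side join in either phase. Igkj2 gave 8 coding-side joins in G1 and 0 in G2, with 7 and 1 signal-side joins. Igkj4 gave 7 and 2 coding-side joins, with 3 and 4 signal-side joins. Igkj5 gave 3 and 0 coding-side joins, with 8 and 0 signal-side joins. Igkj3 gave none on either side. Joins of both Jκ ends, the coding end and the blunt signal end, were thus seen in both phases, at counts too low for a ratio in G2.

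At Igh the joins were stacked on the coding ends of a few VH segments, chosen here after their values were seen. Ighv1-54 gave 13 coding-side joins in G1 and 2 in G2, Ighv8-7 11 and 4, Ighv1-11 7 and 0 and Ighv1-76 3 and 1. None of the 4 gave a signal-side join. Wild-type G1 held 33 of these joins, the first wild-type G2 library 6, and each CtIP A/A library at most 1. Ighv8-7, without an exact heptamer in its 60 bases, took as many as Ighv1-54 over the 6 libraries (15 each).

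Among megabase bins seen in at least 3 libraries, 5 are named that took most genome junctions on average. They were chr6:70000000-70999999, which holds the Jκ segments and other sequence, chr2:167000000-167999999, chr12:115000000-115999999 in the VH part of Igh, chr11:98000000-98999999 and chr3:95000000-95999999. The chromosome 6 bin held 59 junctions in wild-type G1 and 5 and 0 in wild-type G2. In CtIP A/A it held 15 in G1 and 3 and 7 in G2. Not all of these were at Igk, since the last of these libraries had 5 junctions in the whole Igk locus. The chromosome 2 bin held 72 in wild-type G1 and 6 and 0 in wild-type G2, but 0 in CtIP A/A G1 and 1 and 3 in CtIP A/A G2. The chromosome 11 bin held 6 of its 11 junctions in the second wild-type G2 library. The chromosome 3 bin held 13 junctions spread over all 6 libraries, 7 of them at 1 position. In this bin 23.1% of baits ended within 20 bp of the border, against 92.1% in the chromosome 6 bin.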

How the data were processed

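Junction tables of 6 HTGTS coding-join libraries were used, with the 6 libraries without DNA-PKcs for the tests of a differing phase effect; the 6 other samples of the series are not analysed here. Per the labels' protocols, DNA was sonicated, amplified from a substrate primer, digested with BstBI and sequenced on a MiSeq, and the substrate was added to mm10 for alignment. The submitters' processing notes name Bowtie2; versions, junction caller and filters are not given in the sources used here. Each deposited line is 1 junction. Its columns hold base positions and a count of uncut bases, per the file headers.

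Coding borders were set at the heptamers, read at the bait border in 51 reads and at the partner border in 6. Coding joins lay up to 1000 bp into the partner coding side. Insertion and microhomology were the gap and overlap of the 2 alignments on the read, and a telomere junction held at least 3 exact repeat units. Jκ coding-side joins lay from 5 bp before to 50 bp after the segment start (from 10 bp before for VH segments), and signal-side joins from 50 bp before to 4 bp after it, on the opposite strand. Genes came from GENCODE mouse M21 and sequences from GRCm38.

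The phase difference is the mean over both CtIP genotypes of the G2 mean minus the G1 library, tested two-sided by exact permutation within genotype; libraries are the replicates. Named loci are the 6 antigen receptor loci and Jκ segments, the 5 megabase bins and 5 substrate positions with the highest mean share, and the 10 commonest inserts. Members and lists were chosen with earlier results of these data known. Alternatives were repeat lines, filters, left-out libraries, run, pooling, strata, window, trimming, thresholds and denominators; modal coding ends, prey identity, the near-bait base for receptor loci and the ratio per 100 coding joins were added after seeing the data. The code was tested on simulated data. Python 3.11.15, numpy 2.4.6, pandas 2.3.3, scipy 1.17.1 and matplotlib 3.10.9 were used.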

Additional observations from a re-analysis of the deposited data

How the results depend on the processing

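Of 286 alternative values, 8 turned direction, all in 4 results near 0. The difference in insertion GC was −0.15 points with identical junctions counted once, −0.132 points without uncut lines and short prey, and −0.304 to 0.733 points when 1 library was left out. The difference in overlaps of 4 bp or more was −0.401 points with identical junctions counted once and −0.201 to 0.836 points when 1 library was left out. Direct joins gave −2.02 points with identical junctions counted once, and microhomology gave −0.187 points when trimmed at the heptamers. The causes were not tested. The bait median difference was 0 without wild-type G1, and that of partner deletions over 200 bp is 0 by construction in a 200 bp window. With all 6 libraries in 1 stratum the smallest p is 0.0667 (exact permutation), so no alternative phase difference could pass 0.05. In the exact permutation tests of the phase effect with against without DNA-PKcs, 3 of 19 measures had an unadjusted p under 0.05, and 0 had an adjusted one here or in 9 alternatives. The smallest p of this exact permutation test is 0.0123, and partner deletions over 200 bp, which reached it, adjusted to 0.235. With fewer libraries the smallest p is larger, so these counts of 0 were nearly fixed by the design. No paired analysis was possible because each genotype has 1 G1 library, so the phases share fewer than 2 replicate numbers. With 289 to 586 junctions in the G2 libraries, single receptor loci and hybrid joins rest on counts under 10.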
